A study of Mus musculus with 36 samples.

Results

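The endothelial cells of the left ventricle were compared between mice 1 day after ischemia-reperfusion (IR) and mice 1 day after sham surgery. A well of a multiwell plate, which receives 1 sorted cell, was taken as endothelial when it held at least 1000 unique molecular identifiers (UMIs, 1 per transcript molecule) of nuclear genes, at least 0.6% of them from Pecam1, Cdh5, Egfl7, Kdr, Emcn, Cav1, Ly6c1 and Fabp4 together, under 1% from 8 macrophage genes and under 2% from 5 fibroblast genes. This gave 185 endothelial wells of 934 wells of that depth on 13 plates, and the same limits gave 378 of 3146 wells over the 36 plates of the whole series. The 4 sham plates held 24, 27, 34 and 18 endothelial wells (103 in all), and the 9 IR plates held 5 to 14 each (82 in all). The macrophage and fibroblast limits removed 0 wells.

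All mice were male C57BL/6 of 8 weeks, and the tissue was the infarcted region of the left ventricle or the matching region of sham hearts. IR was a 1-hour ligation of the left anterior descending artery followed by reflow. Both groups underwent surgery and were collected at day 1. Each plate was treated as a replicate. The mouse behind each plate was not stated, so p-values measured the spread between plates and would be too small where plates share a mouse.

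Heart capillary endothelium takes fatty acids from the blood and hands them to cardiomyocytes, through Cd36, Fabp4 and Fabp5 and the transcription factors Meox2 and Tcf15. It lines vessels with caveolae and closes them with junctions. After injury, endothelial cells are known to express adhesion molecules and chemokines that recruit leukocytes, genes that control clotting, and, when they sprout, tip-cell genes such as Apln and Angpt2.

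The wells carried endothelial markers on every plate. Pecam1, the platelet endothelial adhesion molecule, was at 766, 1070, 900 and 1182 UMIs per 1000000 UMIs of nuclear genes (CPM) on the sham plates and at 797 to 1923 CPM on the IR plates, with a median of 1373. Cdh5, the endothelial cadherin, was at 1070, 1572, 1174 and 1192 CPM on the sham plates and at 745 to 1720 CPM on the IR plates, with a median of 1042. The other wells of the same plates held 44.9 and 36.02 CPM of Pecam1 and 41.3 and 21.4 CPM of Cdh5 in sham and IR. These genes chose the wells, so their levels are given with no test. Of the other genes that chose them, Fabp4, a fatty acid carrier, was at 8464 to 13013 CPM in sham and 4167 to 6884 CPM in IR, and Kdr, the main VEGF receptor, was at 388 to 606 and 161 to 840 CPM. A list of 21 endothelial identity genes outside the choice made up 0.980% to 1.14% of UMIs on the sham plates and 0.711% to 1.07% on the IR plates.

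No difference in depth per well passed its test. The endothelial wells held 574624 UMIs in sham and 791896 in IR, and the plate sums ran from 26159 to 255505, so that 1 UMI was worth 3.91 to 10.6 CPM on the sham plates and 4.36 to 38.2 CPM on the IR plates. Plate medians of UMIs per endothelial well averaged 3396 ± 942 (SD, n = 4) in sham and 3558 ± 1134 (SD, n = 9) in IR (exact permutation test over plates, two-sided, p = 0.8, adjusted p = 1 over 4 plate measures). Genes per well after thinning to 1000 UMIs averaged 658 ± 10.99 and 653 ± 53.4 (exact permutation p = 1, adjusted p = 1), and unthinned they were 1583 and 1523. The mitochondrial share averaged 40.6% ± 8.25 and 40.1% ± 13.3 (exact permutation p = 0.993, adjusted p = 1). Endothelial wells made up 20.2%, 27.6%, 24.8% and 23.1% of the wells of 1000 UMIs on the sham plates and 11.1% to 26.0% on the IR plates, with a median of 13.6%. The difference of the means, -7.14 percentage points, did not pass after adjustment (exact permutation p = 0.0448, adjusted p = 0.179), and with wells of at least 2000 UMIs the share of endothelial wells differed by -8.08 points (exact permutation p = 0.0112, adjusted p = 0.0448). With wells of at least 500 UMIs it was -1.93 points, from group means of 16.7% and 14.8% (exact permutation p = 0.506, adjusted p = 1). The smallest p that 4 plates against 9 allow is 0.0028. The share of endothelial wells counts wells that passed the limits. The 8 genes that chose them made up 1.58% to 2.06% of endothelial-well UMIs in sham and 1.03% to 1.47% in IR. Tests of this share therefore cannot separate the number of endothelial cells from the level of those genes.

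Some plate sums rested on a single well. The deepest well gave 11.1% to 54.2% of a sham plate's endothelial UMIs and 21.3% to 83.0% of an IR plate's, with an IR median of 53.5%. RNA of other cell types also differed between the groups. The 15 cardiomyocyte markers made up 1.39%, 1.53%, 2.01% and 1.58% of UMIs in sham endothelial wells and 0.196% to 1.17% in IR, with a median of 0.488%, and the groups did not overlap. The 9 neutrophil markers made up 0.0303% to 0.0750% in sham and 0.00808% to 0.803% in IR, and 1 of the 9, Camp, was at 0 on all plates. The 10 mural markers made up 0.0851% to 0.157% and 0.0229% to 0.544%, the 11 macrophage genes outside the selection 0.00253% to 0.0278% and 0.0238% to 0.315%, and 6 of 9 lymphocyte markers were at 0 on all plates. Their part in the gene results was not tested except where a value is given below. On IR plate 9, 17 wells resembled the deeper well of the same number on IR plate 5 more than any other well there, 5 resembled IR plate 8, and 4 wells of IR plate 3 resembled IR plate 2. Of these, 1 was an endothelial well, and 474 genes were called without it against 472 with it.

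**Figure D1:**
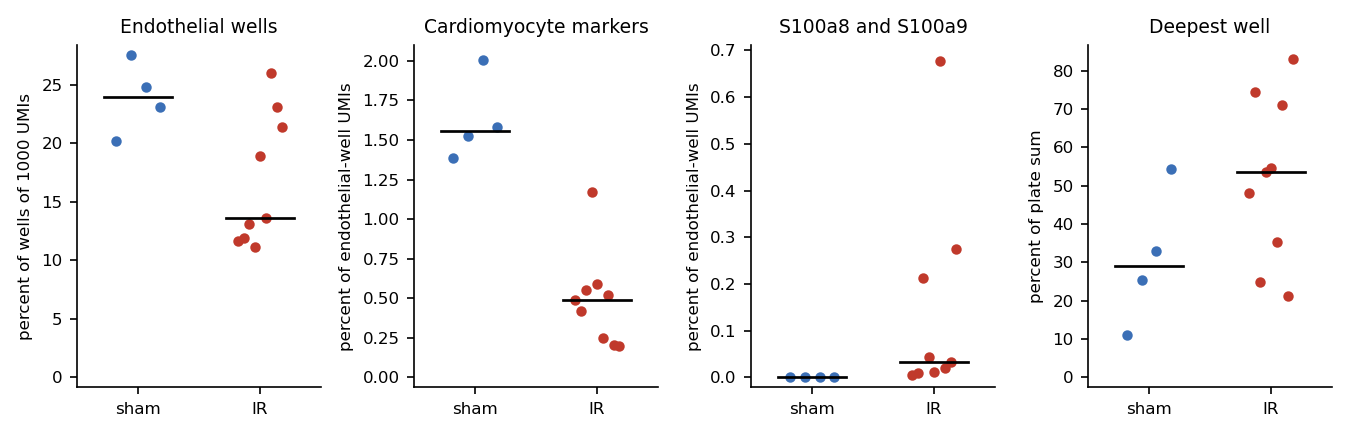
Values of each plate (points, 4 sham and 9 IR, bars at the group median): endothelial wells as a percent of wells of at least 1000 UMIs, cardiomyocyte markers and S100a8 plus S100a9 as percents of endothelial-well UMIs, and the deepest well as a percent of the plate sum. Cardiomyocyte markers were at 1.39% to 2.01% in sham and 0.196% to 1.17% in IR, S100a8 plus S100a9 were higher on every IR plate than on any sham plate, and the other 2 measures overlapped.

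Of 2449 genes tested with edgeR's quasi-likelihood test on plate sums, 472 passed an adjusted p of 0.05 (19.3%), 246 higher in IR (10%) and 226 lower (9.23%), and 803 had an unadjusted p under 0.05. In 183 genes (7.47%) the call held and the 4 sham and 9 IR plates did not overlap in CPM, 93 that rose and 90 that fell. Over all genes tested the log2 fold changes had a median of 0.06. A gene was tested where at least 4 plates reached a limit of 106 CPM, so that a gene could be admitted by its values in 1 group alone, and counts over the tested members of a list are descriptions. Of the 246 higher genes 216 rose by more than 2-fold, and of the 226 lower genes 192 fell by more than 2-fold. Leaving out sham plate 3 left 283 calls and leaving out sham plate 1 left 313, and without sham plate 2 the higher genes numbered 158 in place of 246. Without the deepest well of each plate 133 calls of 921 genes tested were left, and with wells under 1% cardiomyocyte UMIs only, 238 of 1420. In each of these fits every one of the 472 genes that could still be tested kept its sign. Among the genes named here, those that lost their call without the deepest wells were Cd36, Timp4, Rgcc, Car4, Cd300lg, Slc9a3r2, Hadhb, Ly6e, Tapbp, B2m, H2-D1, Nrp1, Tek, Tspan7, Cav2, Fscn1, Adamts1, Adamts9, Ltbp4, Hif1a, Ndrg1, Pgk1, Gapdh, Pgam1, Ncl, Rpl12, Rpl6, Ccnd1, Fosb, Hsp90aa1 and Cct3. With wells under 1% cardiomyocyte UMIs the calls of Angpt2, Prkcdbp, Cd300lg, Nrp1, Hadhb, Hif1a, Egln1, Ccnd1, Rpl12, Psmd14, Adamts9, Il4ra, Entpd1, Ace, Col4a1 and Col4a2 were among those lost. Genes beyond those chosen by rule, such as single list members given only by their fold, were named after their values were seen.

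**Figure D2:**
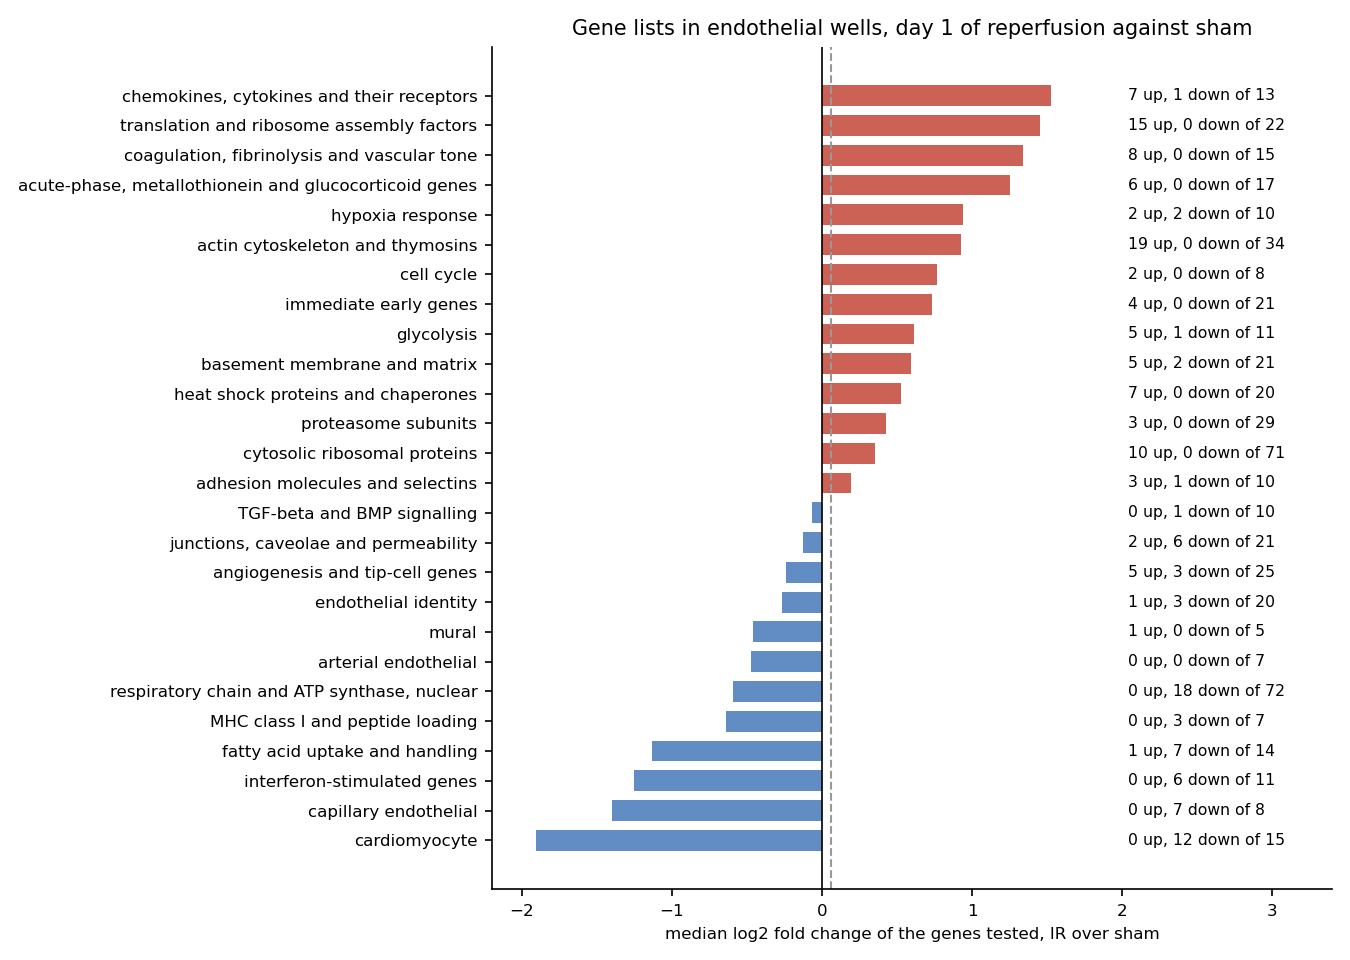
Median log2 fold change (IR over sham) of the genes tested in each list with at least 5 tested genes, with the number that rose and fell at the right. The dashed line marks the median of all 2449 genes, 0.06. Capillary, interferon, fatty acid and cardiomyocyte lists sit at the low end, and chemokine, translation and coagulation lists at the high end.

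Of 8 capillary endothelial markers tested 7 fell and 0 rose, where 9.23% of all genes tested fell and 10% rose. Their median log2 fold change was -1.40. The list of 9 genes made up 1.09%, 1.53%, 1.46% and 1.28% of UMIs on the sham plates. On the IR plates it made up 0.283% to 0.853%, with a median of 0.578%. Tcf15 (chr2:152143056-152149097, GRCm38), which with Meox2 drives fatty acid uptake genes in heart endothelium, was at 337, 767, 450 and 306 CPM on the sham plates. IR plates held 0 to 113 CPM of Tcf15, with a median of 51.8. Every sham plate lay above every IR plate, and the fall was 7.19-fold (log2 fold change -2.85 ± 0.36, SE, adjusted p = 2.86e-05). Thinned to 1000 UMIs, 34.0% of sham and 7.32% of IR endothelial wells had a Tcf15 UMI, against 2.13% and 1.43% of the other wells (unthinned, 70 of 103 and 19 of 82 endothelial wells). Median depths before thinning were 3133 and 3375 UMIs in endothelial wells and 2635 and 3039.5 in the others.

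Cd36 (chr5:17781690-17888959), the fatty acid translocase, was at 4169, 7734, 7428 and 6427 CPM in sham and at 661 to 4388 CPM in IR, with a median of 2392. The lowest sham plate lay below the highest IR plate, and the fall was 2.71-fold (log2 fold change -1.44 ± 0.33, adjusted p = 0.00459). Cd300lg, a capillary mucin receptor chosen after its values were seen, was at 1196, 1354, 1276 and 1192 CPM in sham and 153 to 1073 CPM in IR, with a median of 443 and no overlap (log2 fold change -1.56 ± 0.35, adjusted p = 0.00348). Aqp1 (chr6:55336299-55348555), the water channel of capillaries, was at 1887, 1723, 1476 and 1382 CPM in sham and 322.5 to 1190 CPM in IR, with a median of 650 and no overlap (log2 fold change -1.36 ± 0.27, adjusted p = 0.00138). Timp4, a metalloproteinase inhibitor, fell 3.10-fold, and Rgcc, Car4 (carbonic anhydrase) and Slc9a3r2, also chosen after their values were seen, fell 2.75-, 2.57- and 2.07-fold. Gpihbp1, which carries lipoprotein lipase onto the capillary wall, did not pass, at 1182 to 1407 CPM in sham and 317 to 1422 CPM in IR (log2 fold change -0.53 ± 0.27, adjusted p = 0.171). The calls of Rgcc and Car4 were lost without sham plate 2 or without sham plate 3, with adjusted p up to 0.0581 and 0.0737. Without the deepest well of each plate, 1 of the 8 capillary markers passed as lower and their median was -0.79. Cd36 then had an adjusted p of 0.253, the highest of its alternatives, whereas Aqp1 passed in every alternative (highest adjusted p = 0.0388). With wells under 1% cardiomyocyte UMIs, 6 of 8 fell and the median was -1.28.

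Of 14 genes listed under fatty acid uptake and handling and tested, 7 fell and 1 rose, with a median of -1.14. Over all genes tested 9.23% fell and 10% rose, and the share of the list that rose was near the latter. Of the 7, Cd36, Timp4 and Rgcc are also among the capillary markers counted above, and Timp4 and Rgcc are not themselves carriers or enzymes of fatty acids. Lpl, lipoprotein lipase, was at 2889, 2717, 3843 and 3757 CPM in sham and 450 to 1226 CPM in IR (log2 fold change -2.13 ± 0.24, adjusted p = 7.34e-06). The other sham wells held 9138 CPM of Lpl, more than the endothelial wells, and the other IR wells held 591 CPM. Hadhb and Acadm, enzymes of fatty acid oxidation, also fell, by 1.03 and 1.14 on the log2 scale. Fabp5, a fatty acid carrier, was at 350 to 826 CPM in sham and 106 to 632 CPM in IR and did not pass (log2 fold change -1.09 ± 0.40, adjusted p = 0.0608), nor did Meox2, the partner of Tcf15 (-1.13, adjusted p = 0.104). Angptl4, a secreted inhibitor of lipoprotein lipase, was the member that rose (log2 fold change 2.26, adjusted p = 0.0177), a call lost without sham plate 1, 2 or 4 (adjusted p up to 0.0698).

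**Figure D3:**
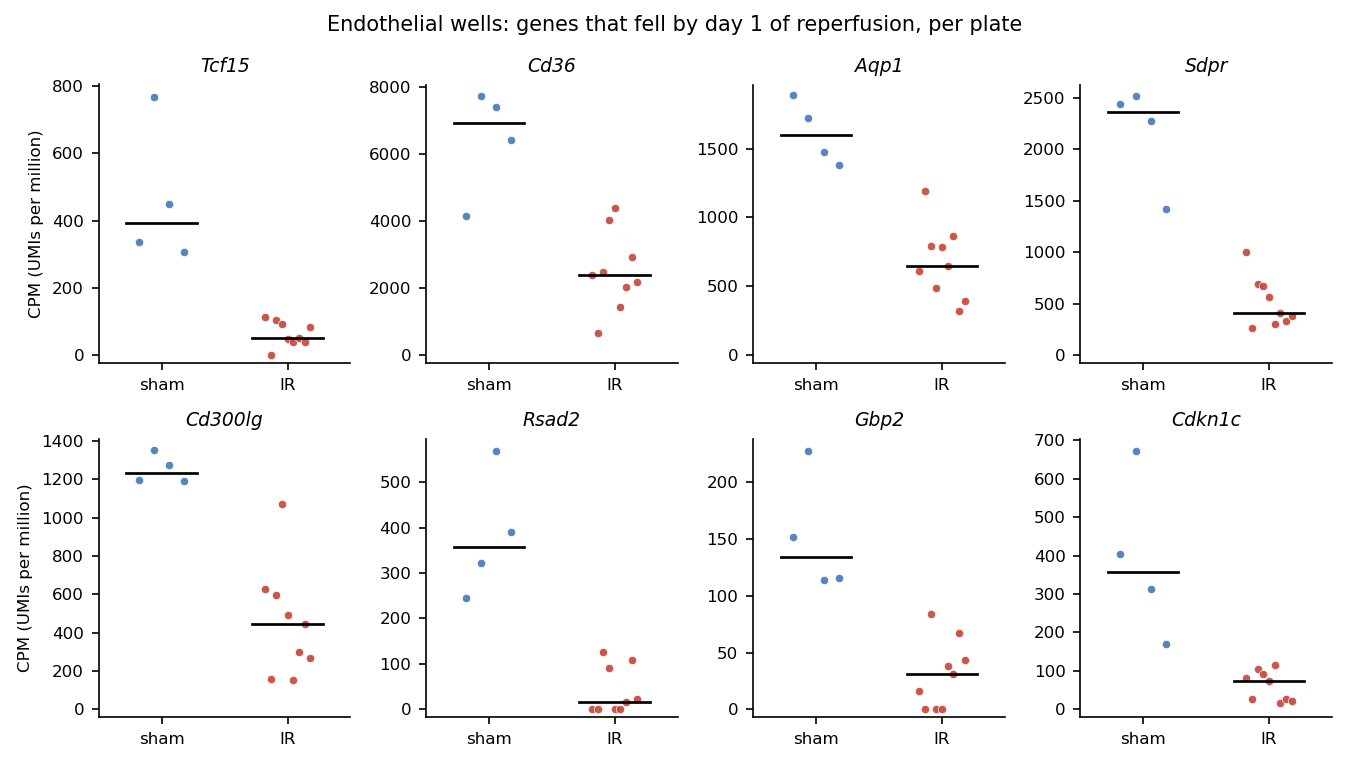
CPM in endothelial wells of each plate (points; 4 sham, 9 IR; bars at the median; linear axes from 0) for 8 genes that fell. The sham plates lie above the IR plates without overlap for all of them except Cd36, where the lowest sham plate (4169 CPM) is under the highest IR plate (4388 CPM).

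Of 11 interferon-induced genes tested 6 fell, 0 rose and 5 did not pass, where 9.23% of all genes tested fell. A further 21 listed genes were too low to be tested. Of the 11, 6 reached the limit on fewer than 4 IR plates and were admitted with the help of sham, 5 of the 6 that fell among them, so that this count leans to lower genes. Rsad2 (chr12:26442743-26456452), the antiviral enzyme viperin, was at 244, 321.9, 568 and 390 CPM in sham and 0 to 126 CPM in IR, with a median of 15.5. It had a UMI on 4 of 4 sham and 5 of 9 IR plates, no IR plate reached a sham plate, and it fell 9.56-fold (log2 fold change -3.26 ± 0.54, adjusted p = 0.000325). Gbp2 (chr3:142620663-142638008), a guanylate-binding protein of the response to interferon, was at 152, 227, 114 and 116 CPM in sham and 0 to 83.8 CPM in IR, with a median of 31.1 and no overlap (log2 fold change -2.06 ± 0.48, adjusted p = 0.0049). Gbp4, of the same family, fell 3.31-fold (adjusted p = 0.00859) and Ly6e, a membrane protein of the same response, 1.83-fold (adjusted p = 0.0064), and Gbp7 fell too (log2 fold change -1.62, adjusted p = 0.01, and 0.056 without sham plate 1). Irf1, a transcription factor of the pathway chosen after its values were seen, fell by 1.37 on the log2 scale (adjusted p = 0.0279), a call lost without sham plate 2, sham plate 4 or IR plate 9 (adjusted p up to 0.159). In the sham plates the other wells held 21.4 CPM of Rsad2, 9.58 of Gbp2, 5.16 of Gbp4 and 346 of Ly6e, all under the lowest endothelial value. Ifitm3, Ly6a, Ifitm2, Bst2 and Iigp1, also of this response, did not pass (log2 fold changes 0.11, 0.10, -0.39, -0.25 and -1.25). Without the deepest well of each plate 4 of the listed genes could be tested with edgeR and 0 passed, with a median of -0.05, and in wells thinned to 1000 UMIs 0 of 3 passed, with a median of 0.35. Gbp genes have close relatives among which reads can be split, so their single values are uncertain.

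The upstream sequences of the 2 interferon genes that fell most are shown, from RefSeq (GRCm38.p6), since both hold the core of the interferon-stimulated response element, GAAANNGAAA (N any base, either strand), to which interferon-activated factors bind. Each is the 250 bases before the gene's start, 5′ to 3′ on the gene's strand, with the match in capitals (here as its reverse complement).
Rsad2, chr12:26456453-26456702, minus strand: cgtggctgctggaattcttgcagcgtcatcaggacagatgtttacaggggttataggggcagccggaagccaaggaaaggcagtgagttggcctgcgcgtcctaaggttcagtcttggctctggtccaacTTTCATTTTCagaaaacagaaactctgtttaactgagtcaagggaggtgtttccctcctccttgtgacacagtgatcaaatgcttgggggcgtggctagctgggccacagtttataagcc
Gbp2, chr3:142620413-142620662, plus strand: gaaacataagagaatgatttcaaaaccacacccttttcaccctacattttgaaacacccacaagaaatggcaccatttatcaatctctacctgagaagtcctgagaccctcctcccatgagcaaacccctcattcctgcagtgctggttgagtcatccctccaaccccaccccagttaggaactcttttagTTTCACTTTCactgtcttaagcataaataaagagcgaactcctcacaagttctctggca
The match starts 120 bases before the start of Rsad2 and 59 before that of Gbp2. It was found in 978 of 32851 upstream windows of this length (2.98%), in 13 of the 23 listed interferon genes whose upstream sequence was used here, and in 3 of the 4 of these that fell, Irf1 being the exception. Those of Gbp4 and Ly6e, which also fell, were not analysed here. A match describes the letters and not binding.

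Of 7 genes of class I antigen presentation tested, 3 fell, 0 rose and 4 did not pass, where 9.23% of all genes tested fell. Without sham plate 2 only 1 fell, which is near that share in a list of 7. B2m, the shared light chain, was at 2830, 3900, 2610 and 2564 CPM in sham and 1250 to 2777 CPM in IR (log2 fold change -0.84 ± 0.24, adjusted p = 0.0166). Tapbp, which loads peptides, fell 1.96-fold and H2-D1, a heavy chain with near-identical relatives, 1.56-fold. H2-K1, Psmb8, Psme1 and Psme2 had log2 fold changes of -0.51, -0.72, -0.07 and -0.18, and without the deepest well of each plate 0 of 5 passed with edgeR. The call of B2m was lost without sham plate 2 (adjusted p = 0.0613) and that of H2-D1 without sham plate 1, sham plate 2 or IR plate 2 (adjusted p up to 0.118). No class II gene passed the count filter on all plates. With 1 plate left out, up to 3 were tested and up to 3 fell. The 6 class II genes made up 0.00505%, 0.00189%, 0.154% and 0.140% of UMIs on the sham plates and 0 to 0.0296% on the IR plates.

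Among 25 angiogenesis and tip-cell genes tested, 5 rose and 3 fell, with a median of -0.24, where 10% of all genes tested rose and 9.23% fell. The number that rose was 3 without IR plate 7 and whichever sham plate was left out, and 3 of the 5 reached the limit on no sham plate. Apln (chrX:48025146-48034853), the peptide apelin made by sprouting tip cells, was at 0, 0, 3.91 and 10.6 CPM on the sham plates. On the IR plates it was at 48.5 to 2332 CPM, with a median of 456, and every IR plate lay above every sham plate. The fitted log2 fold change was 6.88 ± 1.08 (adjusted p = 0.000229), and since sham held 2 UMIs in all, the pooled ratio of 175 has a 95% exact counting interval of 48.0 to 1445. A UMI was found in 2 of 103 sham and 20 of 82 IR endothelial wells, and thinned to 1000 UMIs in 0.971% and 12.2%, against 0.304% and 2.38% of the other wells. The other IR wells held 28.5 CPM. A single well gave 47.0% of the IR UMIs of Apln, and the call held in every alternative that tested it (highest adjusted p = 0.00568).

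Mcam (chr9:44134658-44142727), the endothelial adhesion receptor CD146, was at 227, 218, 74.4 and 169 CPM in sham and 368 to 1228 CPM in IR, with a median of 771 and no overlap. It rose 4.23-fold (log2 fold change 2.08 ± 0.35, adjusted p = 0.000333), and the other wells held 12.5 and 24.6 CPM in sham and IR. Pgf, placental growth factor, was at 0, 18.9, 3.91 and 42.2 CPM in sham and 0 to 600 CPM in IR (log2 fold change 4.03 ± 0.91, adjusted p = 0.00367). Angpt2 (chr8:18690263-18741562), the Tie2 antagonist released by activated endothelium, was at 33.7, 18.9, 27.4 and 31.7 CPM in sham. IR plates ran from 0 to 1147 CPM with a median of 105, and 6 of 9 held a UMI (log2 fold change 3.08 ± 0.93, adjusted p = 0.0235). The Angpt2 call was lost when any 1 of the 4 sham plates was left out (adjusted p up to 0.0921), and a single well gave 58.6% of its IR UMIs. Fscn1, which bundles actin in filopodia, rose by 1.27 (adjusted p = 0.0385), a call lost without any 1 of the sham plates or without IR plate 7 (adjusted p up to 0.146).

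The 3 that fell were the receptors Tie1, Tek and Nrp1, a share near that of all genes tested. Tie1, an angiopoietin co-receptor, was at 783, 975, 920 and 1319 CPM in sham and 294 to 879 CPM in IR, with a median of 476, and fell 2.27-fold with 1 sham plate below the highest IR plate (log2 fold change -1.18 ± 0.24, adjusted p = 0.00183). Tek, the receptor Tie2, and Nrp1, a VEGF co-receptor, both chosen after their values were seen, fell 1.89- and 1.99-fold (adjusted p = 0.0157 and 0.0228), and the Nrp1 call was lost without sham plate 1 (adjusted p = 0.0764). Flt1, a VEGF receptor, Dll4, the tip-cell Notch ligand, and Notch1 did not pass (log2 fold changes -0.41, 1.05 and 0.20). Of the 20 identity genes tested, Tie1, Tek and Tspan7 fell and Ecscr rose, counts near the 9.23% and 10% of all genes tested. Ecscr, an endothelial surface protein that regulates migration, rose 3.67-fold (75.8, 123, 74.4 and 116 CPM in sham, 184 to 501 CPM in IR, no overlap, adjusted p = 0.000333). Ecscr and Tspan7 were chosen after their values were seen. The call of Tspan7 was lost without sham plate 1 or sham plate 2 (adjusted p up to 0.0561). None of 7 arterial markers tested passed with edgeR, and none of 4 venous markers. With 1 plate left out, up to 1 arterial and up to 1 venous marker passed as higher.

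**Figure D4:**
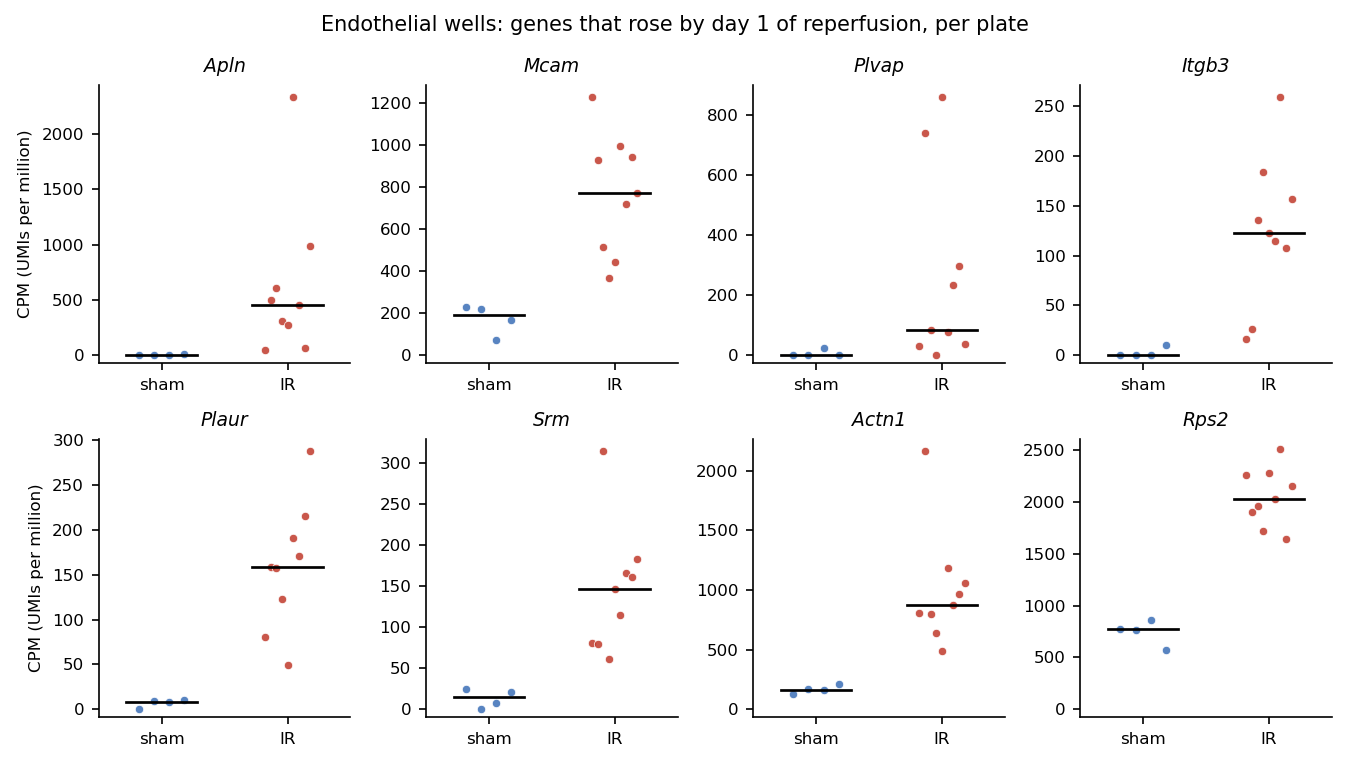
CPM in endothelial wells of each plate (points; 4 sham, 9 IR; bars at the median; linear axes from 0) for 8 genes that rose. All IR plates lie above all sham plates except for Plvap, where 1 IR plate is at 0 CPM and sham plate 3 at 23.5 CPM.

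Plvap (chr8:71497753-71511806), the protein of fenestral and caveolar diaphragms, was at 0, 0, 23.5 and 0 CPM in sham and 0 to 858 CPM in IR, with a median of 83.8. It had a UMI on 1 of 4 sham and 8 of 9 IR plates (log2 fold change 4.42 ± 1.07, adjusted p = 0.00614), and the other IR wells held 17.1 CPM. Transcripts of caveolar proteins did not move together. Sdpr (chr1:51289126-51302960), also called cavin-2, was at 2443, 2518, 2278 and 1425 CPM in sham and 265 to 1002 CPM in IR, and fell 4.47-fold without overlap (log2 fold change -2.16 ± 0.29, adjusted p = 5.31e-05). Prkcdbp, also called cavin-3, was at 110, 218, 200 and 264 CPM in sham and 199 to 937 CPM in IR, and rose 2.70-fold (adjusted p = 0.00548). Ptrf (cavin-1) and Cav2 fell by 0.85 and 0.71 on the log2 scale (adjusted p = 0.0168 and 0.047), calls lost without sham plate 1, and for Cav2 also without 8 other single plates (adjusted p up to 0.0618 and 0.149). Jam2, a junctional adhesion molecule, fell 3.00-fold from 657, 861, 603 and 507 CPM to between 91.5 and 404 CPM (adjusted p = 0.00179). Cldn5, the main claudin of endothelium, was at 42.1, 284, 333 and 380 CPM in sham and 98.1 to 344 CPM in IR and did not pass (log2 fold change -0.30 ± 0.37, adjusted p = 0.596). In the list of junctions, caveolae and permeability 6 of 21 tested fell and 2 rose, where 9.23% of all genes tested fell and 10% rose, so that the share that rose was near that of all genes. The 6 include Aqp1, also counted among the capillary markers, and 1 rose without IR plate 2, 5, 7 or 8.

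Leukocyte adhesion molecules were thinly covered. Icam1, the integrin ligand, was at 84.2, 37.9, 54.8 and 42.2 CPM in sham and 16.2 to 524 CPM in IR, with a median of 153, and did not pass (log2 fold change 1.54 ± 0.61, adjusted p = 0.0819). Vcam1, Sele and Selp, which capture rolling leukocytes, were under the filter. Sele was at 0 on all sham plates and had 20 UMIs on 6 of 9 IR plates, which is at least 4.84-fold higher against a floor of 3 UMIs over the sham group, and 65.0% of the 20 came from a single well. Selp had 6 and 85 UMIs, Vcam1 11 and 63. Without the filter, edgeR gave adjusted p = 0.0353 for Sele, 0.00112 for Selp and 0.106 for Vcam1. Itgb3, the beta-3 integrin, was at 0, 0, 0 and 10.6 CPM in sham and 16.2 to 259 CPM in IR, with a median of 123 (pooled ratio 89.3, 95% exact counting interval 15.7 to 3554). Its call held in every alternative that tested it, and the other IR wells held 16.0 CPM. Cd44, the hyaluronan receptor, and Itga5, the fibronectin receptor, rose 4.98- and 3.48-fold (adjusted p = 0.0109 and 0.0288). The Cd44 call was lost without sham plate 3 (adjusted p = 0.0553) and the Itga5 call without sham plate 1, 2 or 3 or IR plate 7 (adjusted p up to 0.118).

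Of 30 listed chemokines, cytokines and receptors 17 were too low to be tested, and of the other 13 7 rose and 1 fell. Over all genes tested 10% rose and 9.23% fell, and the share of the list that fell was near the latter. All 7 that rose reached the limit on no sham plate and were admitted by their IR plates, so that this count leans to higher genes. Cxcl2, a neutrophil chemokine, was at 0, 18.9, 3.91 and 0 CPM in sham and 0 to 2179 CPM in IR, with a median of 276 (pooled ratio 81.8, 95% exact counting interval 27.7 to 398, adjusted p = 0.00201). Ccl2, a monocyte chemokine, was at 0, 47.3, 11.7 and 0 CPM in sham and 32.3 to 1228 CPM in IR, with a median of 199 (log2 fold change 4.84 ± 1.03, adjusted p = 0.00256). Ccl6, a myeloid chemokine, and Il1b, the cytokine interleukin-1 beta, which was chosen after its values were seen, rose by 4.95 and 4.89 on the log2 scale. The other IR wells held more of all 4, at 1860, 2708, 2272 and 1461 CPM. Tnfrsf12a, the TWEAK receptor, was at 33.7, 0, 0 and 21.1 CPM in sham and 30.7 to 268 CPM in IR, and rose 9.57-fold (adjusted p = 0.00451). Il4ra and Csf1, the receptor chain of interleukin-4 and a macrophage growth factor, were the remaining members that rose, and Lifr, the LIF receptor, fell. The Csf1 call was lost without sham plate 1 or 3 (adjusted p up to 0.14) and the Lifr call without sham plate 1 or 2 (adjusted p up to 0.0636). Cxcl1 was not tested and had most of its sham UMIs on plate 4 (306 CPM there, 0 to 25.3 CPM on the others, 0 to 196 CPM in IR).

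S100a8 and S100a9, the calgranulins of neutrophils, had the largest fitted rises among called genes without overlap and with at least 100 CPM in IR. S100a9 was at 0 on all sham plates and at 16.2 to 3058 CPM on the IR plates, with a median of 88.0, which is at least 126-fold higher against a floor of 3 UMIs over the sham group. S100a8 had 1 UMI in sham and was at 32.3 to 3708 CPM in IR (pooled ratio 420, 95% exact counting interval 75.1 to 16623). The other IR wells held 1660 CPM of S100a9 and 1885 CPM of S100a8. Of the other neutrophil markers, Retnlg and Csf3r had 1 UMI each in sham and 43 each in IR and were not tested, and Lcn2 and Cxcr2 did not pass (81 and 379 UMIs, 236 and 244 UMIs). Leaving out wells with at least 0.5% of UMIs from the 2 calgranulins or at least 1% from mural markers left 433 calls, and 7 of 13 genes tested of the chemokine list were then higher.

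Of 15 genes of clotting, fibrinolysis and vascular tone tested, 8 rose, 0 fell and 7 did not pass, where 10% of all genes tested rose. Of the 8, 4 reached the limit on no sham plate, so that the count leans to higher genes, and without sham plate 1, 2 or 3 it was 5. Plaur, the urokinase receptor, was at 0, 9.47, 7.83 and 10.6 CPM in sham and 49.0 to 287 CPM in IR, with a median of 159 (log2 fold change 4.28 ± 0.57, adjusted p = 5.33e-05). Thbs1, the platelet and matrix protein thrombospondin-1, was at 3.91 to 10.6 CPM in sham and 0 to 803 CPM in IR (log2 fold change 5.12 ± 0.87, adjusted p = 0.000387). For both genes the other IR wells held more, at 223 and 1878 CPM. Anxa2, which assembles plasmin at the cell surface, rose 3.25-fold from 396, 180, 270 and 348 CPM to between 612 and 1429 CPM. Adamts1, a secreted protease, Edn1, the vasoconstrictor endothelin-1, Entpd1, which clears ATP, and Ace also rose, by 1.99, 2.57, 1.66 and 1.21 on the log2 scale. Of these, Adamts1 passed whichever plate was left out, while Edn1 and Entpd1 lost their calls without sham plate 1, 2 or 3 (Edn1 also without IR plate 9; adjusted p up to 0.129 and 0.103) and Ace without any of 8 single plates (adjusted p up to 0.204). Vwf was at 67.4, 0, 66.5 and 169 CPM in sham and 0 to 645 CPM in IR and did not pass (log2 fold change 1.34 ± 0.76, adjusted p = 0.227), and Thbd, thrombomodulin, had -0.47 (adjusted p = 0.359).

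In a list of actin, tubulin and other cytoskeleton genes with thymosins, S100 proteins and annexins, 19 of 34 tested rose, with 0 lower and a median of 0.92, where 10% of all genes tested rose. Without sham plate 3 the number was 12. The 19 include the tubulins Tubb6, Tuba1c and Tubb2a, the intermediate filament gene Vim, and Anxa2, which is also in the clotting list. The list made up 2.07%, 2.10%, 1.57% and 1.86% of UMIs in sham and 2.84% to 4.85% in IR, without overlap. Actn1, non-muscle alpha-actinin, was at 126, 170, 160 and 211 CPM in sham and 490 to 2169 CPM in IR, and rose 5.53-fold (log2 fold change 2.47 ± 0.34, adjusted p = 5.9e-05). S100a6, a calcium-binding protein, was at 118, 123, 129 and 127 CPM in sham and 319 to 1529 CPM in IR (log2 fold change 2.62 ± 0.38, adjusted p = 0.000111). Tubb6, a beta-tubulin, was at 8.42, 18.9, 11.7 and 0 CPM in sham and 98.1 to 612 CPM in IR, and rose 27.2-fold (log2 fold change 4.77 ± 0.53, adjusted p = 7.34e-06). For each of these, no IR plate came down to the sham plates. Actb and Actg1, the cytoplasmic actins, rose by 1.55 and 1.66, and Vim by 1.51. Beside these, the smooth muscle actin Acta2, a mural marker chosen after its values were seen, had 17 UMIs in sham and 598 in IR, of which 80.8% came from a single well (log2 fold change 3.47 ± 1.19, adjusted p = 0.0444). Its plates, at 0 to 123 CPM in sham and 0 to 2121 CPM in IR, overlapped. Its call was lost without sham plate 1, 3 or 4 (adjusted p up to 0.168), in wells under 1% cardiomyocyte UMIs and with DESeq2 (adjusted p = 0.239), and it was too low to be tested without IR plate 7, 8 or 9. The other 4 mural markers tested did not pass, and without neutrophil or mural wells 18 of the 34 genes of this list rose. Tmsb4x, the actin-binding thymosin beta-4 in which the study took an interest, was at 4414, 4629, 2908 and 3060 CPM in sham and 2514 to 5302 CPM in IR (log2 fold change 0.00 ± 0.24, adjusted p = 0.991). Tmsb10 and Ptma, the other thymosin-type genes, had 0.44 ± 0.26 and 0.13 ± 0.27 and did not pass. Zeb2, the study's transcription factor, had 18 and 60 UMIs and was under the filter (without it, 0.88 ± 0.57, adjusted p = 0.444).

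Translation and ribosome assembly factors rose in 15 of 22 tested, with 0 lower, where 10% of all genes tested rose. Of the 15, 8 reached the limit on no sham plate, so that the count leans to higher genes. There was no overlap of the list's share of UMIs (0.560% to 0.633% in sham, 0.843% to 1.36% in IR). Srm, spermidine synthase, was at 25.3, 0, 7.83 and 21.1 CPM in sham and 61.3 to 314 CPM in IR (log2 fold change 3.43 ± 0.58, adjusted p = 0.000348). Odc1, which makes the first polyamine, rose by 2.42. Eif4a1, the initiation helicase, was at 202, 227, 145 and 201 CPM in sham and 451 to 917 CPM in IR, and rose 3.18-fold (adjusted p = 0.000229). Nme1, a nucleotide kinase, and Mybbp1a, a nucleolar protein, rose 4.29- and 4.28-fold, and Ncl, nucleolin, by 1.40 on the log2 scale. Of 71 cytosolic ribosomal protein genes 10 rose and 0 fell, with a median of 0.36, where 10% of all genes tested rose. The 10 became 6 without sham plate 2, 3 or 4 or IR plate 9, and 16 without IR plate 4. Rps2 was at 775, 767, 865 and 570 CPM in sham and 1639 to 2516 CPM in IR, with no overlap (log2 fold change 1.35 ± 0.22, adjusted p = 0.000248), and Rpl12, Rpsa and Rpl6 rose 2.37-, 2.36- and 1.94-fold. Ribosomal protein genes have many processed copies in the genome, so reads may be split among them. Without the deepest wells, 4 of 12 translation factors tested rose and 2 of 68 ribosomal protein genes.

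Glucose genes rose in part. Slc2a1, the glucose transporter GLUT1, was at 16.8, 0, 3.91 and 0 CPM in sham and 30.7 to 222 CPM in IR, with no overlap (pooled ratio 30.0, 95% exact counting interval 10.03 to 147, adjusted p = 0.000339). Pkm, pyruvate kinase, was at 312, 331, 262 and 359 CPM in sham and 552 to 1337 CPM in IR, and rose 3.03-fold (adjusted p = 0.000258). Pgk1, Gapdh and Pgam1 rose as well, and 5 of 11 glycolysis genes tested rose in all, where 10% of all genes tested rose. In the same list 1 fell, a share near the 9.23% of all genes tested. The calls of Gapdh and Pgam1 were lost without sham plate 1 or 3 (adjusted p up to 0.0746 and 0.0596). Ldhb, the lactate dehydrogenase of oxidative muscle, fell 8.16-fold, but the other sham wells held 908 CPM of it against 219 to 341 CPM in the endothelial wells. Of 10 hypoxia genes tested, Slc2a1 and Hif1a rose (Hif1a 2.82-fold, adjusted p = 0.00861) and Ndrg1 and Egln1 fell. Over all genes tested 10% rose and 9.23% fell, and in a list of this size both counts are near those shares. Without IR plate 3, 7, 8 or 9 or sham plate 1, 1 hypoxia gene rose. The Hif1a call was lost without sham plate 1 (adjusted p = 0.0509), and the calls of Ndrg1 and Egln1 without sham plate 1, 2 or 3 (adjusted p up to 0.0757 and 0.0907).

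Respiratory chain and ATP synthase genes of the nucleus fell in 18 of 72 tested, with 0 higher and a median of -0.59, where 9.23% of all genes tested fell. The number was 11 without sham plate 1 and 9 without sham plate 3, and 11 of the 72 reached the limit on fewer than 4 IR plates, 3 of those that fell among them. Cox7a2l, which assembles supercomplexes, was at 160, 398, 438 and 274 CPM in sham and 49.0 to 175 CPM in IR (log2 fold change -1.85 ± 0.32, adjusted p = 0.000451). Cox6c, a subunit of cytochrome oxidase, was at 590, 577, 524 and 485 CPM in sham and 153 to 362 CPM in IR (log2 fold change -1.29 ± 0.25, adjusted p = 0.00138). Cox6a2, the striated muscle form, fell 5.03-fold, and the other sham wells held 5356 CPM of it against 606 to 1425 CPM in the endothelial wells. With wells under 1% cardiomyocyte UMIs, 5 of 45 tested fell and the median was -0.16.

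Of the 12 largest falls among called genes without overlap and with at least 100 CPM in sham, 9 were genes with a higher CPM in the other sham wells than in the endothelial wells: Myh6, Pln, Dsp, Kcnk3, Ldhb, Ckmt2, Atp2a2, Actn2 and Fabp3, most of them known for cardiomyocyte contraction or energy supply. Myh6, the ventricular myosin heavy chain, was at 1179, 1098, 3112 and 2206 CPM in sham endothelial wells and 26.1 to 238 CPM in IR, while the other wells went from 12770 to 287 CPM. Kcnk3, a potassium channel, was at 185, 133, 211 and 148 CPM and 0 to 64.6 CPM, with 687 and 35.7 CPM in the other wells. All told, 12 of 15 cardiomyocyte markers fell in the endothelial wells, with a median of -1.90, where 9.23% of all genes tested fell. The other 3 of the 12 largest falls, Rsad2, Tcf15 and Cdkn1c, were higher in endothelial than in other sham wells. Cdkn1c (chr7:143458339-143461059), the cell cycle inhibitor p57, was at 404, 672, 313 and 169 CPM in sham and 15.5 to 115 CPM in IR, with no overlap, and fell 7.90-fold (log2 fold change -2.98 ± 0.44, adjusted p = 0.000134). Its level in the other wells was 25.0 and 3.57 CPM. Over all 226 genes that fell, 73 had a higher CPM in the other sham wells and 153 in the endothelial wells. Of the 246 that rose, 114 had a higher CPM in the other IR wells and 132 in the endothelial wells. These counts set the mean of plate CPMs in endothelial wells beside a CPM pooled over the other wells. They were not made over all genes tested and are descriptions.

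**Figure D5:**
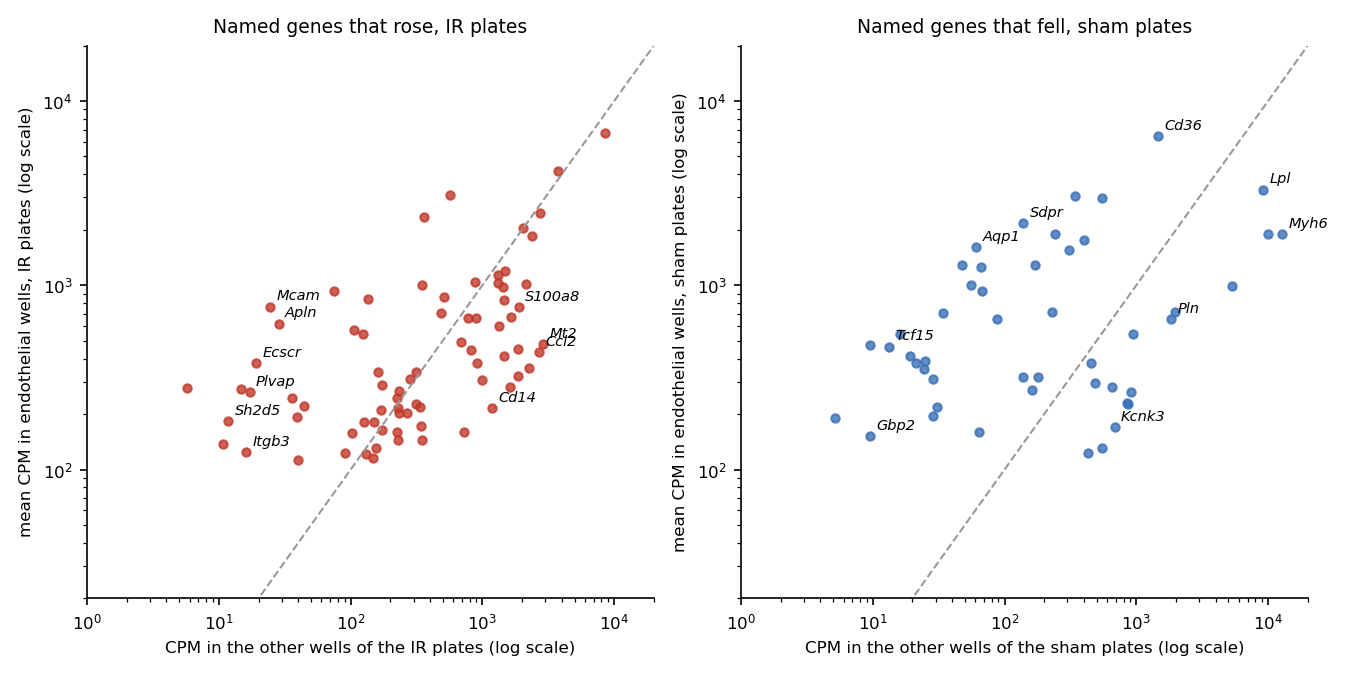
Named genes that rose (left, IR plates) and fell (right, sham plates), with mean CPM in endothelial wells against CPM in the other wells of the same plates (log axes; dashed line at equality). Apln, Mcam, Plvap, Itgb3, Sh2d5 and Ecscr lie above the line at left, and S100a8, Ccl2, Cd14 and Mt2 below it, while at right Tcf15, Sdpr, Aqp1, Cd36 and Gbp2 lie above and Myh6, Lpl, Pln and Kcnk3 below.

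Among the 12 largest rises, Apln, Sh2d5 and Itgb3 were at 28.5, 11.8 and 16.0 CPM in the other IR wells. Sh2d5, an adaptor protein, was at 0, 0, 0 and 10.6 CPM in sham endothelial wells and 62.9 to 459 CPM in IR, with a median of 100 (pooled ratio 98.0, 95% exact counting interval 17.3 to 3898). AA467197, a small gene of chromosome 2, was at 0, 9.47, 3.91 and 0 CPM in sham and 61.3 to 423 CPM in IR, with 174 CPM in the other IR wells. Cd14, the endotoxin co-receptor of myeloid cells, was at 0, 9.47, 35.2 and 10.6 CPM in sham and 49.0 to 726 CPM in IR, with 1181 CPM in the other IR wells.

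Of 8 cell cycle genes tested 2 rose and 0 fell, where 10% of all genes tested rose. Without sham plate 3 the number was 1, near that share. Cdkn1a, the cell cycle inhibitor p21, was at 67.4, 161, 149 and 201 CPM in sham and 220 to 1338 CPM in IR, with a median of 883, and rose 5.51-fold (log2 fold change 2.46 ± 0.42, adjusted p = 0.00042). Ccnd1, cyclin D1, was at 556, 237, 211 and 422 CPM in sham and 632 to 970 CPM in IR (2.21-fold, adjusted p = 0.00577), a call lost without sham plate 3 (adjusted p = 0.0515). These were the 2 that passed, and the other 20 listed, among them the mitotic genes Mki67 and Top2a, were under the filter. Mt2, a metallothionein that binds zinc, was at 0, 37.9, 78.3 and 84.4 CPM in sham and 97.0 to 1537 CPM in IR (log2 fold change 3.16 ± 0.73, adjusted p = 0.00459), and the other IR wells held 2883 CPM. Mt1 had 1.25 ± 0.49 and did not pass (adjusted p = 0.0755), and Timp1 was under the filter. Fkbp5, a glucocorticoid target, rose 5.19-fold and Cebpb, an acute-phase transcription factor, 12.5-fold. The whole list of acute-phase, metallothionein and glucocorticoid genes had 6 of 17 higher and 0 lower, where 10% of all genes tested rose. Cdkn1a and Angptl4, which other lists hold too, were among the 6, and 5 of the 6 reached the limit on no sham plate. Without the deepest well of each plate 1 of 10 was higher, near the share of all genes in that fit (71 of 921).

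Of 21 immediate early genes tested 4 rose and 0 fell, where 10% of all genes tested rose, and without the deepest well of each plate 1 of 16 rose. The number was 2 without sham plate 3 or IR plate 6, 8 or 9. Ier3, a survival gene, was at 177, 218, 145 and 63.3 CPM in sham and 343 to 1070 CPM in IR, with no overlap (log2 fold change 1.84 ± 0.34, adjusted p = 0.000814). Fosl2 rose 6.79-fold. The call of Maff was lost without sham plate 2 or 3 (adjusted p up to 0.0738), and that of Fosb in 14 of 28 alternatives. Of 20 chaperones tested 7 rose, with 0 lower, where 10% of all genes tested rose. The number was 1 or 2 whichever sham plate was left out, 4 without IR plate 7 and 3 without IR plate 9. Among the 7 was the mitochondrial Hspa9 (75.7 to 106 CPM in sham, 178 to 388 CPM in IR, 2.33-fold). Hsp90aa1, Cct3 and Hspd1 rose 1.77-, 2.70- and 2.15-fold, calls that were lost without single sham plates (adjusted p up to 0.117, 0.103 and 0.103). Without the deepest well of each plate, 0 of 12 chaperones passed with edgeR. Of 29 proteasome genes tested 3 rose (Psmd14, Psmc4 and Psmd3), a share near the 10% of all genes tested that rose, and all 3 reached the limit on no sham plate. Psmd14 rose whichever plate was left out, while Psmc4 was lost without sham plate 2, 3 or 4 (adjusted p up to 0.089) and Psmd3 in 18 of 27 alternatives.

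Of 21 basement membrane and matrix genes tested 5 rose, 2 fell and 14 did not pass, with 18 of the 21 above 0 and a median log2 fold change of 0.60. Over all genes tested 10% rose and 9.23% fell, and the share of the list that fell was near the latter. Without neutrophil or mural wells 3 of the 21 rose and 2 fell, and 2, 2 and 1 rose without sham plate 1, 2 and 3. Sparcl1, a secreted matrix glycoprotein, was at 2030, 2140, 1460 and 1994 CPM in sham and 76.5 to 912 CPM in IR, with a median of 398, and fell 4.64-fold without overlap (log2 fold change -2.21 ± 0.35, adjusted p = 0.000229). Lamb2, the laminin beta-2 chain, fell 2.61-fold. Mmp14, a membrane-bound matrix protease, was at 16.8, 9.47, 23.5 and 94.98 CPM in sham and 0 to 423 CPM in IR (log2 fold change 2.53 ± 0.59, adjusted p = 0.0049). Col4a1 and Col4a2, the chains of type IV collagen, rose by 0.86 and 0.86 (adjusted p = 0.0288 and 0.0361), calls lost without neutrophil or mural wells, without sham plate 1, 2 or 3 and for Col4a2 also without IR plate 1 (adjusted p up to 0.155 and 0.178), and Adamts9, a protease, 2.46-fold, a call lost without sham plate 3 or 4 (adjusted p up to 0.078). Of the 10 genes of TGF-beta and BMP signalling tested, Ltbp4, which binds latent TGF-beta, fell 2.05-fold and 0 rose. That share was near the 9.23% of all genes tested that fell. Without IR plate 1, 4 or 6 a second gene fell.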

How the data were processed

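Single cells were sorted into 384-well plates and sequenced by SORT-seq, which primes on poly(A) tails and tags each molecule with a UMI of 6 bases. The authors deposited counts of UMIs per gene and well, per plate, after alignment with BWA to GRCm38 (mm10). The BWA version and the gene annotation are not given in the sources used here. All 174110208 deposited values were whole numbers. A UMI of this length saturates at 4096, the highest value in the files. Mitochondrial rows and spike-ins were left out, leaving 20720 genes of 20848 rows.

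Wells that passed the limits were summed per plate, for plates with at least 5 of them. Genes were filtered with filterByExpr, scaled by TMM and tested with edgeR 4.0.16 (quasi-likelihood, R 4.3.3) on the 4 sham and 9 IR plates, with Benjamini-Hochberg adjustment over all genes tested and a threshold of 0.05. SE is that of the log2 fold change, SD that between plates. Plate measures were compared by exact two-sided permutation over 715 splits. Counting intervals are exact at 95% and, like the floor of 3 UMIs, cover counting error only. Wells of the same number on different plates were checked for copies by correlation of their counts.

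The members and lists were chosen with earlier results of these data known. The genes named were the 12 largest rises and 12 largest falls among called genes without overlap and with at least 100 CPM in the higher group, up to 4 called genes per list with the smallest p, 21 genes named whatever their result, and the 8 genes that chose the wells. The remaining named genes were chosen after their values were seen, and 1 gene that the rule names is not reported here. Alternatives were RLE scaling, no filter, DESeq2 1.42.0, a fit over all 6 groups, other well and plate minimums, thinned wells, wells left out for cardiomyocyte, neutrophil, mural or copied content, Rn45s left out, a replicate block and each plate left out in turn. Leaving out the deepest wells, the 1% cardiomyocyte limit and the unblocked fit of replicates 1 to 4 were added after the data were seen. On simulated counts for 2062 genes edgeR recovered 97.2% of 4-fold and 29.7% of 2-fold changes and called 0.0522% of unchanged genes. Plots and tables were made with Python 3.11.15, numpy 2.4.6, pandas 2.3.3 and scipy 1.17.1.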

Additional observations from a re-analysis of the deposited data

Results flagged for a closer look

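A plate far from the others of its group was found for 32 of the 232 gene and group combinations examined by Dixon's criterion. Chance alone passes it in about 1 in 20 where values are normally distributed, which CPMs with many zeros are not. A group with a UMI on a single plate always passes, so 32 cannot be set against that rate. Of the 32, 8 were on IR plate 6 and 7 on sham plate 4, while sham plate 1, IR plate 4 and IR plate 8 had 0. Their causes were not tested.

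IR plate 6 was highest for S100a9 (3058 CPM), S100a8 (3708), Apln (2332), Cd14 (726), Cxcl2 (2179), Tie1 (879), Gbp4 (268) and Cebpb (1147). Apln and S100a8 passed without that plate as well. Sham plate 4 was apart for S100a8, Sh2d5 and Itgb3, each at 10.6 CPM or 1 UMI against 0 on the other sham plates, for Ndrg1 (148 CPM, the lowest) and for Mmp14 (94.98), Cxcl1 (306) and Timp1 (274), where it was highest. IR plate 5 was highest for Pln (221 CPM), Egln1 (319), Fkbp5 (294) and Zeb2 (245).

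IR plate 1 was highest for Ccl6 (1454 CPM) and Kdr (840), IR plate 2 for Hspd1 (423) and Actn1 (2169), IR plate 3 for Srm (314) and Dsp (62.9), IR plate 7 for Maff (295) and Mt2 (1537), and IR plate 9 for Sele (61.0). Sham plate 2 was apart for Fosl2 (47.3 CPM, the highest) and Hspa9 (75.7, the lowest), and sham plate 3 was highest for Plvap (23.5) and Ly6c1 (1397).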

How the results depend on the processing

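Of 472 calls, every gene that could be tested kept its sign in every alternative. The number of calls was within 1.5 times under RLE scaling, DESeq2, other well and plate minimums, and without cardiomyocyte-rich, neutrophil or mural, copied wells or Rn45s. It was 716 (393 lower) in a fit over all 6 groups, and without a filter the lower genes numbered 416, with 40.0% of calls higher in place of 52.1%. It fell to 238 (111 higher, 127 lower) with wells under 1% cardiomyocyte UMIs, to 133 (71 and 62) without the deepest wells and to 45 (22 and 23) of 192 genes in thinned wells, fits that also tested fewer genes. With 1 plate left out it ran from 283 to 498 (higher 135 to 254, lower 148 to 244). Replicate numbers did not pair the plates (correlations of deviations -0.041, -0.052, 0.015 and -0.042), and with the replicate block on replicates 1 to 4 there were 138 calls (72 higher, 66 lower) against 227 (124 and 103) on the same plates without it. Of 124 called genes named here, 65 passed in every alternative that tested them and 87 whichever plate was left out. Some alternatives could not test many of the calls. Of the 472, 76 could be tested in thinned wells, 254 without the deepest wells and 329 with wells under 1% cardiomyocyte UMIs. Of those, 42, 125 and 205 were still called. The share of endothelial wells differed by -8.08 points at 2000 UMIs, by -1.93 at 500 UMIs and by -8.39 to -5.93 with 1 plate left out. With 1 plate left out, the difference in median UMIs per endothelial well ran from -193 to 436, in median genes per endothelial well from -14.2 to 9.69 and in mitochondrial share of endothelial wells from -3.81 to 2.86 points, measures not past the threshold on all plates. Depth limits genes under about 1 UMI a plate, 38.2 CPM on the shallowest IR plate.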

Other observations

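Endothelial wells by the same limits were present in the other groups of the series, whose plates are given as mean ± SD CPM with no test. At day 3 after myocardial infarction (MI, 4 plates) Apln was at 455 ± 158, Mcam at 1166 ± 352 and Itgb3 at 138 ± 49.9 CPM, while Tcf15 was at 60.7 ± 52.5, Cd36 at 775 ± 599, Rsad2 at 35.6 ± 29.8 and Cdkn1c at 16.2 ± 27.6 CPM. Myh6 was at 0 on those 4 plates. At day 3 after IR (2 plates) Apln was at 31.6 ± 30.2, Mcam at 168 ± 50.9 and Plvap at 224 ± 57.2 CPM, while Tcf15 was at 166 ± 10.5, Sdpr at 998 ± 251 and Rsad2 at 104 ± 2.64 CPM.

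At day 14 after IR (3 plates) Tcf15 was at 365 ± 81.5, Cd36 at 4116 ± 337, Rsad2 at 412 ± 126 and Gbp2 at 134 ± 28.0 CPM. On sham plates 1, 5, 7 and 8 of day 14 these were at 505 ± 102, 4721 ± 751, 393 ± 116 and 151 ± 40.5 CPM. Apln was at 33.6 ± 15.3 CPM and 45.1 ± 60.9 CPM in these groups. Another sham plate of day 14 was left out by hand, here and in the fit over all 6 groups. Plates with fewer than 5 endothelial wells are not included.

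Class II genes had 202 UMIs of Cd74, 110 of H2-Aa, 106 of H2-Ab1 and 101 of H2-Eb1 in sham endothelial wells and 37, 26, 15 and 21 in IR. The haemoglobin gene Beta-s had 35 and 736 UMIs and did not pass (log2 fold change 2.82 ± 1.08, edgeR adjusted p = 0.0725). With 1 plate left out its log2 fold change ran from 2.34 to 4.55, and it passed in part of these fits. Lymphatic endothelial genes were thinly covered, with 12 and 79 UMIs of Lyve1 and 2 and 0 of Prox1.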
